A study of Mus musculus with 11 samples.

Results

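The semaphorins, plexins and neuropilins are a family of guidance ligands and their receptors, and 31 of their genes were followed in the developing mouse retina. The members were chosen by Ensembl identifier from the 47069 genes counted: 20 semaphorins, 9 plexins and 2 neuropilins. RNA-seq was done on 11 retinal libraries of C57BL/6 mice: 2 wild-type and 3 Kir2.1 libraries at postnatal day 4 (P4), and 3 of each genotype at postnatal day 8 (P8). Kir2.1 mice (Brn3b-Kir2.1) carry the human potassium channel Kir2.1, which damps electrical excitability, fused to eYFP behind a CAG promoter and a STOP cassette that Cre removes. The transgenic line was made by injecting the construct into oocytes, and Brn3b-cre drives recombination in retinal ganglion cells, so other retinal cells are not its target. By its title, the study asked whether correlated retinal activity around birth is needed to wire visual axons in nuclei that do not serve image formation. The labels differ on 3 points. The genotype field calls the controls wild type and the protocol names Brn3b-cre mice, so the controls may carry the driver too. The age field gives day 8 and the extraction protocol day 11. The source field names ganglion cells, whereas the protocol describes dissociation of isolated retinas and mentions no sort. Groups are named by the fields, and the labels do not say whether libraries came from separate animals, litters or pools, so the p-values below measure only the spread between these samples.

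Semaphorins are secreted or membrane-bound ligands that steer growing axons, dendrites and vessel sprouts, mostly by repulsion. Plexins are their main receptors, and neuropilins are co-receptors that secreted class 3 semaphorins need to engage most class A plexins. In the retina, class 5 and class 6 semaphorins acting through class A plexins keep neurites within the inner plexiform layer and sort them among its sublayers, while Sema3e and plexin D1 shape the growing vessels.

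Gene counts per library ran from 9362215 to 12478838, so that 1 count was worth 0.0768 to 0.104 CPM (a gene's counts scaled to library size, here by the TMM method). Of all genes, 18188 had enough counts to be tested, and all 31 members were among them. The summed level of 10 ganglion cell markers was 220 to 1890 CPM and that of 7 rod markers was 214 to 5110 CPM, with none of these markers at 0 in any library, which shows RNA of other retinal cells beside that of ganglion cells. Wild-type P4 replicate 2 stood apart from the other P4 libraries, with 140 CPM of bipolar cell markers against 5.67 to 11 CPM, and 874 CPM of dividing cell markers against 1970 to 2520 CPM. Wild-type P8 replicate 1 stood apart from the other P8 libraries, with 620 CPM of rod markers against 2430 to 5110 CPM. In Kir2.1 P8 replicate 2, 31325 genes had a count, against 22609 to 24591 in the other 10 libraries. The mouse gene of Kir2.1 cannot check the human transgene, so the genotype labels were not checked against it. In bulk samples, fewer cells of a type and less RNA per cell cannot be told apart.

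Promoter windows of 5 members that changed between P4 and P8 are printed as examples, chosen after their values were seen, to show how their base composition varies. Each window is the 250 bases before the RefSeq start of transcription (RefSeq, build GRCm38.p6), written 5′ to 3′ on the gene's strand. Capitals mark the GC box GGGCGG read on either strand, and neighbouring boxes may overlap. The windows are Sema5a at chr15:32244563-32244812 on the plus strand, Plxnc1 at chr10:94944846-94945095 on the minus strand, Plxnd1 at chr6:115995006-115995255 on the minus strand, Sema7a at chr9:57939862-57940111 on the plus strand and Sema3d at chr5:12382916-12383165 on the plus strand.
Sema5a: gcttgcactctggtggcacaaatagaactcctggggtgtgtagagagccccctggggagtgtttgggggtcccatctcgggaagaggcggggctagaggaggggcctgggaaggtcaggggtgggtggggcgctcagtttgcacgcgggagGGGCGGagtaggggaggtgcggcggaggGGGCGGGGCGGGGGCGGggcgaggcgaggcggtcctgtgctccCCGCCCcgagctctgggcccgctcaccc
Plxnc1: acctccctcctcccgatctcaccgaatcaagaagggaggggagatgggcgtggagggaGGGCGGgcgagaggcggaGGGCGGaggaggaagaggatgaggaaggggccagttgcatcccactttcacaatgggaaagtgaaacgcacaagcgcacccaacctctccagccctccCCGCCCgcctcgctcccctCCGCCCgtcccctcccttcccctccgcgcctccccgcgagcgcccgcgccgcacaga
Plxnd1: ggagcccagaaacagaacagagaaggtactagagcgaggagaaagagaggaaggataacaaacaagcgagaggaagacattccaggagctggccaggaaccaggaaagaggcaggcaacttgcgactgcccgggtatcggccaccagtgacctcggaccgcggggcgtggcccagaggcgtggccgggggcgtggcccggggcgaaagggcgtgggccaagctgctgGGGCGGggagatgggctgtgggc
Sema7a: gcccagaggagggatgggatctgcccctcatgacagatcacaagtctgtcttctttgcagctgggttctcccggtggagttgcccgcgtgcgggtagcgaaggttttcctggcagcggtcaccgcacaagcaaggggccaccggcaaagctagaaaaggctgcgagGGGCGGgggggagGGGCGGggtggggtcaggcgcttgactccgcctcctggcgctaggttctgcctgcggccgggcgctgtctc
Sema3d: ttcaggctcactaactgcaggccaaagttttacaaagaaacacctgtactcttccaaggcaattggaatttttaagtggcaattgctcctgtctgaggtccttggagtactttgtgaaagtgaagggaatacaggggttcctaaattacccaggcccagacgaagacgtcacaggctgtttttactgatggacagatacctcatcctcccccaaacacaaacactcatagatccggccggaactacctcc
The first 3 belong to genes that fell with age and the last 2 to genes that rose. The Sema5a window holds 5 GC boxes at 72.0% G and C, the Plxnc1 window 4 boxes at 68.8%, the Plxnd1 window 1 box at 64.8% and the Sema7a window 2 boxes at 66.4%. The Sema3d window holds 0 boxes and has 46.8% G and C, and ends 219 bases before the start of the gene in GENCODE M21, against 10 bases or fewer for the other printed windows. Composition did not separate Sema7a from the members that fell. The 16 windows of 9 members that fell, of which 11 hold a GC box, ran from 40.8% to 72.0% G and C. The 40.8% is that of Sema3a, whose window lies far inside the gene as annotated in GENCODE M21. The next lowest was 52.0% (Sema4d, whose window also lies inside its gene). Sema3d at 46.8% is therefore within the range only through the Sema3a window. RefSeq entries matched 26 of the 31 members and gave 37 windows. A GC box was found in 27 of these 37 windows (73.0%) and in 32.7% of all 32851 promoter windows of the same length, and the median content of G and C was 64.0% against 52.4%. The CRE (TGACGTCA), the CRX and OTX motif (TAATCC), the homeodomain motif (TAATTA) and the TATA box (TATAAA) were searched on both strands and matched 0 of the 37 member windows, against 1.55%, 6.25%, 4.84% and 12.4% of all windows. An AP-1 motif (TGANTCA) was in 3 of the 37 windows (8.11%) and in 6.75% of all windows, and an E-box (CANNTG, not in capitals above) in 19 of the 37 (51.4%) and in 66.2% of all windows. These matches are descriptions of letters in a window.

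Read counts grow with transcript length, so levels were set side by side as group means of CPM per kb of exon. In wild type at P4 the highest level per kb was that of Sema6a, a transmembrane ligand of plexins A2 and A4, at 49.4 ± 1.13 CPM per kb (SD, n = 2). Plxna1 followed at 40.9 ± 2.73 and Plxna2 at 28.4 ± 4.16 CPM per kb (SD, n = 2). Plxnb2 at 26.7 ± 4.67 and Sema4g at 24.4 ± 5.88 CPM per kb lay within the spread of Plxna2 (SD, n = 2). Sema6a ranked 1 of 31 at P4 in both genotypes and ranked 4 at P8 in both. The lowest levels were those of Plxnb3 at 0.0523 and Sema3c at 0.113 CPM per kb in wild type at P4. Summed over the family, the 9 plexins gave 1386 to 1610 CPM over the 11 libraries. The 20 semaphorins gave 1291 to 1398 CPM in the 5 P4 libraries and 904.8 to 1189 CPM in the 6 P8 libraries, with no overlap between the ages. Without Sema6a the semaphorin sums overlapped, at 901.2 to 1001 CPM at P4 and 705.3 to 953.6 CPM at P8. The sums of the 2 neuropilins overlapped between the ages, at 200.9 to 247.3 CPM at P4 and 123.8 to 284.5 CPM at P8.

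**Figure D1:**
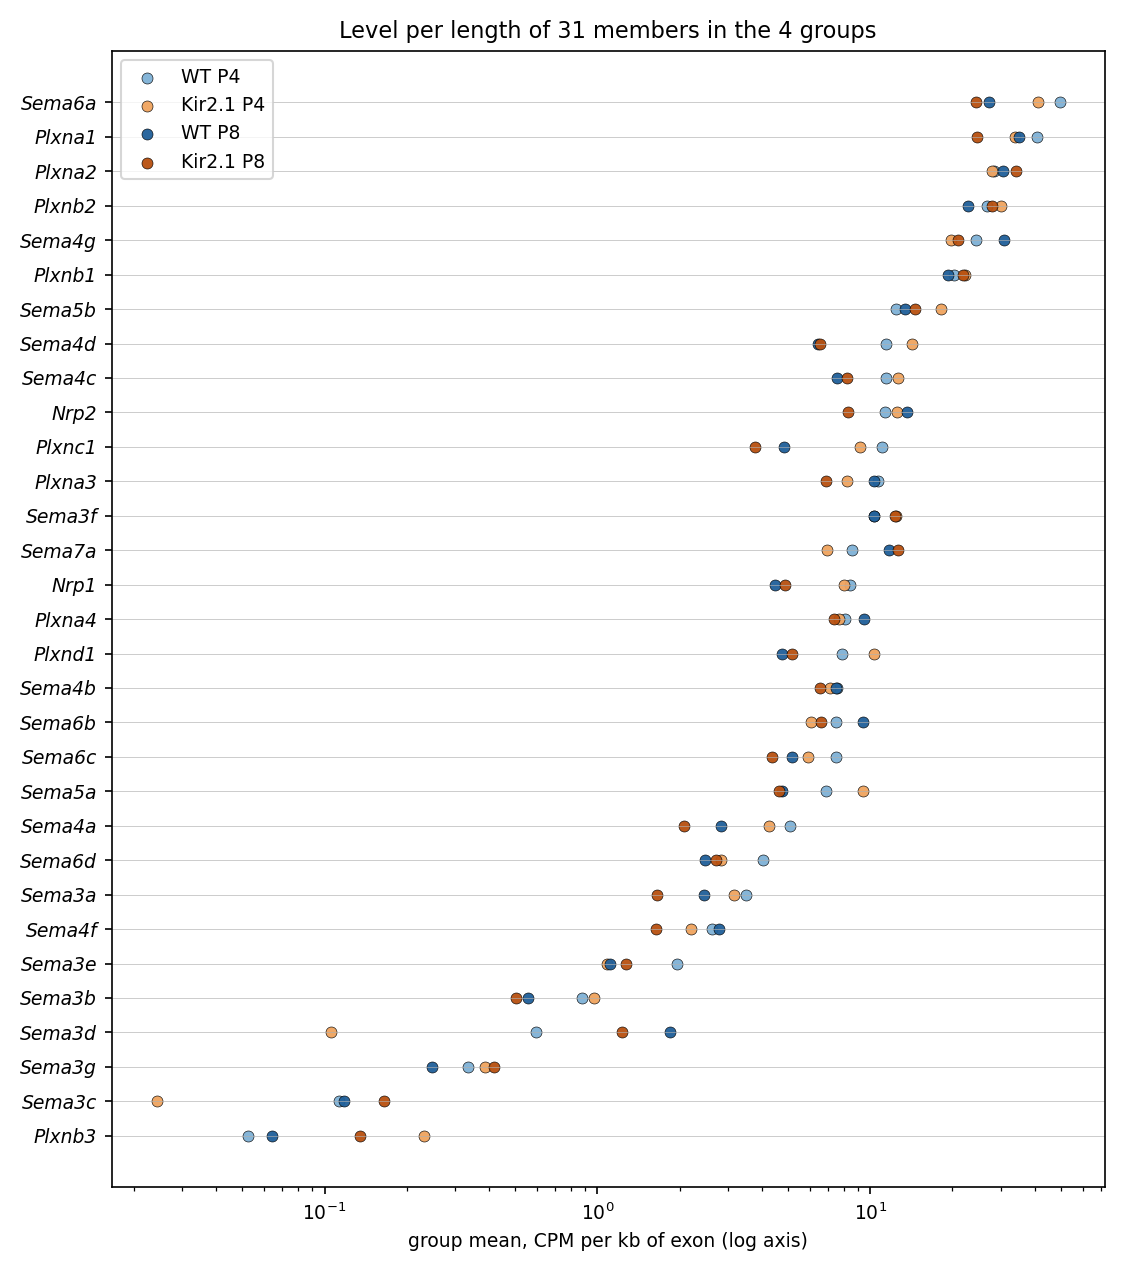
Group mean level of each of the 31 members in CPM per kb of exon (horizontal log axis), with 1 point per group (blue shades, wild type; orange shades, Kir2.1; light, P4; dark, P8). Sema6a and the plexins A1, A2 and B2 lie at the top, Sema3c and Plxnb3 at the bottom, and the dark points of Sema6a, Sema4d, Plxnc1 and Nrp1 lie to the left of the light ones.

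Between P4 and P8, averaged over the genotypes, 12 of the 31 members changed: Sema3d and Sema7a rose, and Sema3a, Sema4a, Sema4c, Sema4d, Sema5a, Sema6a, Sema6c, Plxnc1, Plxnd1 and Nrp1 fell (edgeR quasi-likelihood test, Benjamini-Hochberg adjusted p under 0.05). That is 38.7% of the members, where 22.8% of all genes tested were called. The 10 that fell stand beside a background of 12.1% called lower, and the 2 that rose beside 10.7% called higher. The median log2 fold change of the members was -0.17, against 0.02 over all genes. Below, library values are given in the order of the replicate numbers.

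Among the secreted class 3 ligands, 2 of 7 changed. Sema3d, a secreted cue for axons and vessels, was at 2.31 and 7.95 CPM in wild type at P4 and at 0.93, 0.307 and 1.49 CPM in Kir2.1 at P4. The P8 values were 25.7, 14.8 and 6.83 CPM in wild type and at 11, 7.2 and 13.6 CPM in Kir2.1. Wild-type P4 replicate 2 was the highest of the P4 libraries and lay above the lowest P8 libraries of both genotypes. Sema3d rose by a log2 fold change of 2.59 ± 0.46 (SE; adjusted p = 0.0019). Sema3a, the prototype repellent that acts through Nrp1 and class A plexins, was at 50.1 and 47.3 CPM in wild type and 40.4, 38.7 and 52.5 CPM in Kir2.1 at P4. By P8 it stood at 43, 43.7 and 15.2 CPM in wild type and 27.4, 19.2 and 22 CPM in Kir2.1. Wild-type replicates 1 and 2 at P8 stayed within the P4 range, and the other 4 P8 libraries lay below it. Its log2 fold change was -0.73 ± 0.23 (adjusted p = 0.0404).

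Sema3e, the ligand that binds plexin D1 without a neuropilin, was at 19.6 and 16.6 CPM in wild type at P4 and 5.13, 13.5 and 12.3 CPM at P8, and its Kir2.1 libraries lay at 10.1, 10.8 and 9.1 CPM at P4 and 12.8, 13.8 and 8.66 CPM at P8. The averaged log2 fold change was -0.29 ± 0.23 (adjusted p = 0.413). Sema3b at -0.81 ± 0.28 missed the threshold (adjusted p = 0.0537). Sema3f, the main ligand of Nrp2, ranged from 40.5 to 73.4 CPM over all libraries. Sema3g stayed at or below 2.73 CPM. Sema3c had 1 to 25 counts per library, with 1 to 3 in each Kir2.1 P4 library, and no fold change is read from it.

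Of the transmembrane class 4 ligands, 3 of 6 fell. Sema4d, a ligand of plexin B1, was at 102 and 73.3 CPM in wild type and 109, 122 and 96.8 CPM in Kir2.1 at P4. The P8 libraries were at 48.7, 50.4 and 48.5 CPM in wild type and 51.6, 46.4 and 52.2 CPM in Kir2.1. The 6 P8 libraries lay close together and below every P4 library. The log2 fold change was -0.98 ± 0.10 (adjusted p = 4.54e-05), the smallest adjusted p among the members. Sema4a, whose loss leads to photoreceptor degeneration in mice, was at 25.9 and 29.2 CPM in wild type and 19.1, 24.9 and 25.2 CPM in Kir2.1 at P4. It was at 18.6, 14.4 and 12.9 CPM in wild type and 10.4, 13.5 and 9.73 CPM in Kir2.1 at P8. The ages did not overlap, although the lowest P4 and the highest P8 library were close, and the log2 fold change was -0.95 ± 0.15 (adjusted p = 0.000742).

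Sema4c, a ligand of plexin B2, was at 55.1 and 49.2 CPM in wild type and 53.7, 58.3 and 61.6 CPM in Kir2.1 at P4. Its P8 libraries lay lower, at 28.3, 36.1 and 39.3 CPM in wild type and 41.5, 33.9 and 38 CPM in Kir2.1. The ages did not overlap and the log2 fold change was -0.60 ± 0.11 (adjusted p = 0.00174). The D430040D24Rik gene lies opposite 7.27% of the exonic bases of Sema4c. Without the strand setting it is not known how reads over those bases were assigned. Sema4b, Sema4f and Sema4g did not pass the test, and ranged over all libraries from 33.9 to 46.4, 6.57 to 17.4 and 140 to 365 CPM.

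Of the class 5 ligands, which hold neurites of inner retinal neurons back from the outer retina, 1 of 2 fell. Sema5a was at 150 and 107 CPM in wild type and 162, 217 and 146 CPM in Kir2.1 at P4. In the P8 libraries it was at 101, 81.8 and 82.2 CPM in wild type and 96.2, 92.5 and 70.2 CPM in Kir2.1. All P8 libraries lay below all P4 libraries, by a log2 fold change of -0.78 ± 0.14 (adjusted p = 0.00173). Sema5b, which acts beside it, was at 99 and 77 CPM in wild type and 118, 160 and 108 CPM in Kir2.1 at P4. At P8 the libraries stood at 67.6, 76.1 and 140 CPM in wild type and 100, 116 and 93.7 CPM in Kir2.1. The ages overlapped, and the log2 fold change of Sema5b was -0.10 ± 0.18 (adjusted p = 0.739).

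Of the class 6 ligands, Sema6a and Sema6c fell. Sema6a was at 441 and 427 CPM in wild type and 351, 350 and 380 CPM in Kir2.1 at P4. By P8 it stood at 235, 289 and 191 CPM in wild type and 228, 200 and 214 CPM in Kir2.1. No P8 library reached a P4 library, and the log2 fold change was -0.81 ± 0.10 (adjusted p = 0.00017). Sema6c was at 52.7 and 36.2 CPM in wild type and 43.7, 27.4 and 34.1 CPM in Kir2.1 at P4. It was at 31.2, 31.8 and 29 CPM in wild type and 24, 27.4 and 26.6 CPM in Kir2.1 at P8. Kir2.1 P4 replicate 2 lay within the P8 range, and the log2 fold change was -0.48 ± 0.14 (adjusted p = 0.0252). Sema6d, a ligand at the optic chiasm that plexin A1 receives, was at 50.4 and 34.9 CPM in wild type and 40.2, 17.2 and 32.1 CPM in Kir2.1 at P4. It was at 31.4, 26.7 and 20.3 CPM in wild type and 35.2, 20.9 and 29.6 CPM in Kir2.1 at P8. These ranges overlapped, and the log2 fold change of Sema6d was -0.38 ± 0.22 (adjusted p = 0.245). Sema6b ranged from 18.7 to 48.8 CPM and did not pass.

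Sema7a, the ligand held by a lipid anchor that binds plexin C1 and integrins, rose while its receptor gene fell. It was at 25.4 and 31.1 CPM in wild type and 26.4, 21 and 21.5 CPM in Kir2.1 at P4. The P8 libraries were at 36.9, 47.1 and 31.9 CPM in wild type and 44, 35.2 and 45.4 CPM in Kir2.1. The ages did not overlap, with wild-type P4 replicate 2 just below wild-type P8 replicate 3, and the log2 fold change was 0.65 ± 0.13 (adjusted p = 0.00433). Plxnc1 was at 115 and 68.1 CPM in wild type and 85.4, 70.1 and 73.6 CPM in Kir2.1 at P4. It was at 35.8, 49 and 35.6 CPM in wild type and 36.8, 33 and 24.9 CPM in Kir2.1 at P8. All P8 libraries lay below the P4 libraries, and the log2 fold change of -1.23 ± 0.16 (adjusted p = 0.000199) was the lowest of any member.

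**Figure D2:**
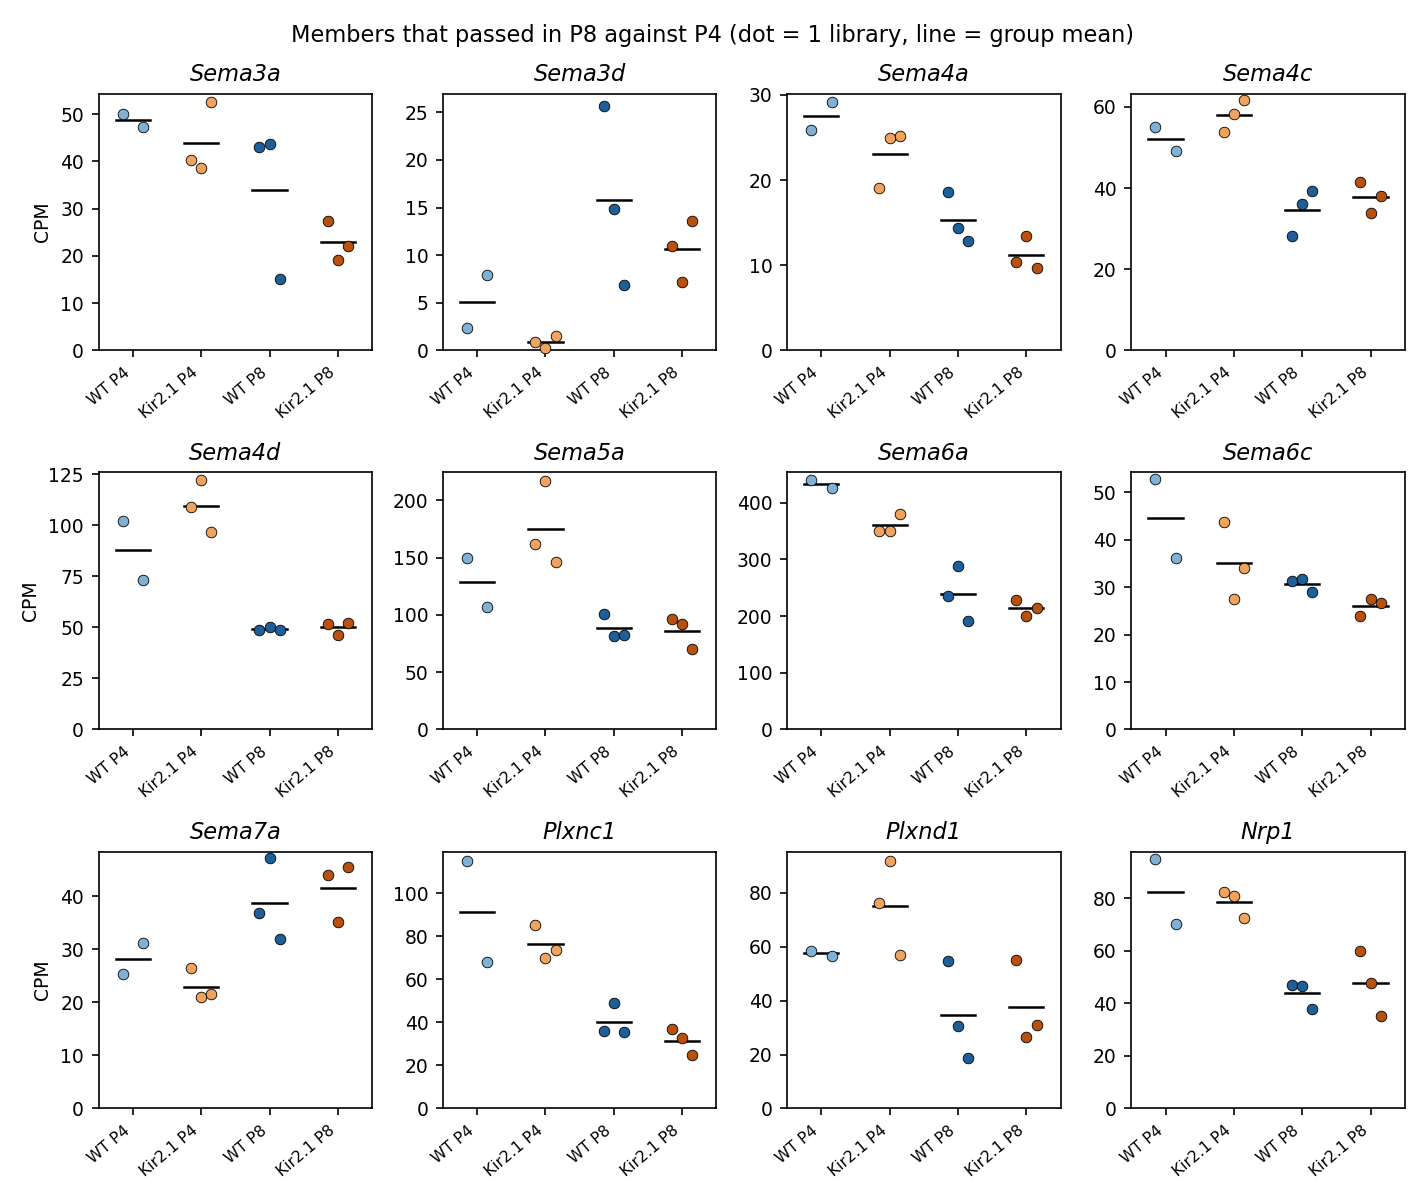
CPM per library (points) and group mean (line) for the 12 members that passed in P8 against P4, in the 4 groups, with each vertical axis from 0. Sema7a and Sema3d lie higher at P8, the other 10 lower, and the P8 points of Sema4d lie close together between 46.4 and 52.2 CPM.

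Among the other receptors, Plxnd1 and Nrp1 fell and none of the class A or class B plexins passed. Nrp1, the co-receptor of Sema3a that also binds vascular endothelial growth factor, was at 94.8 and 70.2 CPM in wild type and 82.5, 80.8 and 72.5 CPM in Kir2.1 at P4. In the P8 libraries it was at 47.1, 46.5 and 37.7 CPM in wild type and 60.1, 47.7 and 35.3 CPM in Kir2.1. The ages did not overlap, and the log2 fold change was -0.82 ± 0.14 (adjusted p = 0.0013). Plxnd1, the receptor of Sema3e on endothelial cells and some neurons, was at 58.5 and 56.6 CPM in wild type and 76.2, 91.6 and 57 CPM in Kir2.1 at P4. It was at 54.6, 30.5 and 18.7 CPM in wild type and 55.2, 26.5 and 31.1 CPM in Kir2.1 at P8. Replicate 1 of each genotype at P8 lay just under the lowest P4 library, and the log2 fold change was -0.86 ± 0.26 (adjusted p = 0.0318). The summed level of 6 endothelial markers was 5.42 to 54.8 CPM at P4 and 29.4 to 138 CPM at P8, highest at P8 in the same replicates 1, with 1 of the 6 called higher with age and none at 0 in any library. Their part in the Plxnd1 result was not tested.

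Plxna2, the receptor through which Sema6a guides starburst amacrine cells, was at 437 and 538 CPM in wild type and 474, 460 and 506 CPM in Kir2.1 at P4. It was at 498, 609 and 477 CPM in wild type and 575, 574 and 620 CPM in Kir2.1 at P8, with overlap between the ages and a log2 fold change of 0.21 ± 0.09 (adjusted p = 0.117). Plxna4, which also binds Sema6a, was at 97.3 and 130 CPM in wild type and 105, 77.8 and 141 CPM in Kir2.1 at P4. It was at 110, 148 and 142 CPM in wild type and 101, 105 and 105 CPM in Kir2.1 at P8. The ages overlapped in Plxna4 too, with a log2 fold change of 0.09 ± 0.15 (adjusted p = 0.725). The 4 class A plexins and Nrp2 all missed the threshold: the averaged log2 fold change was -0.34 ± 0.15 for Plxna1 (adjusted p = 0.132), -0.16 ± 0.14 for Plxna3 (adjusted p = 0.454) and -0.16 ± 0.21 for Nrp2 (adjusted p = 0.632). Over all libraries Plxnb1 lay at 157 to 234 CPM and Plxnb2 at 140 to 261 CPM, and Plxnb3 had 1 to 23 counts per library.

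The age comparison was also made within each genotype. In wild type, 5 of 31 members were called (16.1%), where 4.39% of all genes were called: Sema4a, Sema4d, Sema6a, Plxnc1 and Nrp1, each lower at P8, beside 3.58% of all genes called lower. In Kir2.1, 9 of 31 were called (29%), where 16.7% of all genes were called, 7.93% higher and 8.73% lower: the same 5 with Sema4c and Sema5a lower, and Sema3d and Sema7a higher. The fall of Plxnc1 was -1.19 ± 0.23 in wild type (adjusted p = 0.0111) and -1.27 ± 0.21 in Kir2.1 (adjusted p = 0.00205). That of Sema6a was -0.87 ± 0.15 in wild type (adjusted p = 0.00546) and -0.75 ± 0.14 in Kir2.1 (adjusted p = 0.00306). The log2 fold change of Sema3d was 1.62 ± 0.64 in wild type (adjusted p = 0.183) and 3.55 ± 0.65 in Kir2.1 (adjusted p = 0.00345), and the test of the difference is given with the genotype comparisons. Leaving out wild-type P4 replicate 1 left 0 members called in wild type (0.823% of all genes), with the lone other library assumed to vary like the other groups, and leaving out wild-type P8 replicate 2 left 3 (2.97% of all genes).

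**Figure D3:**
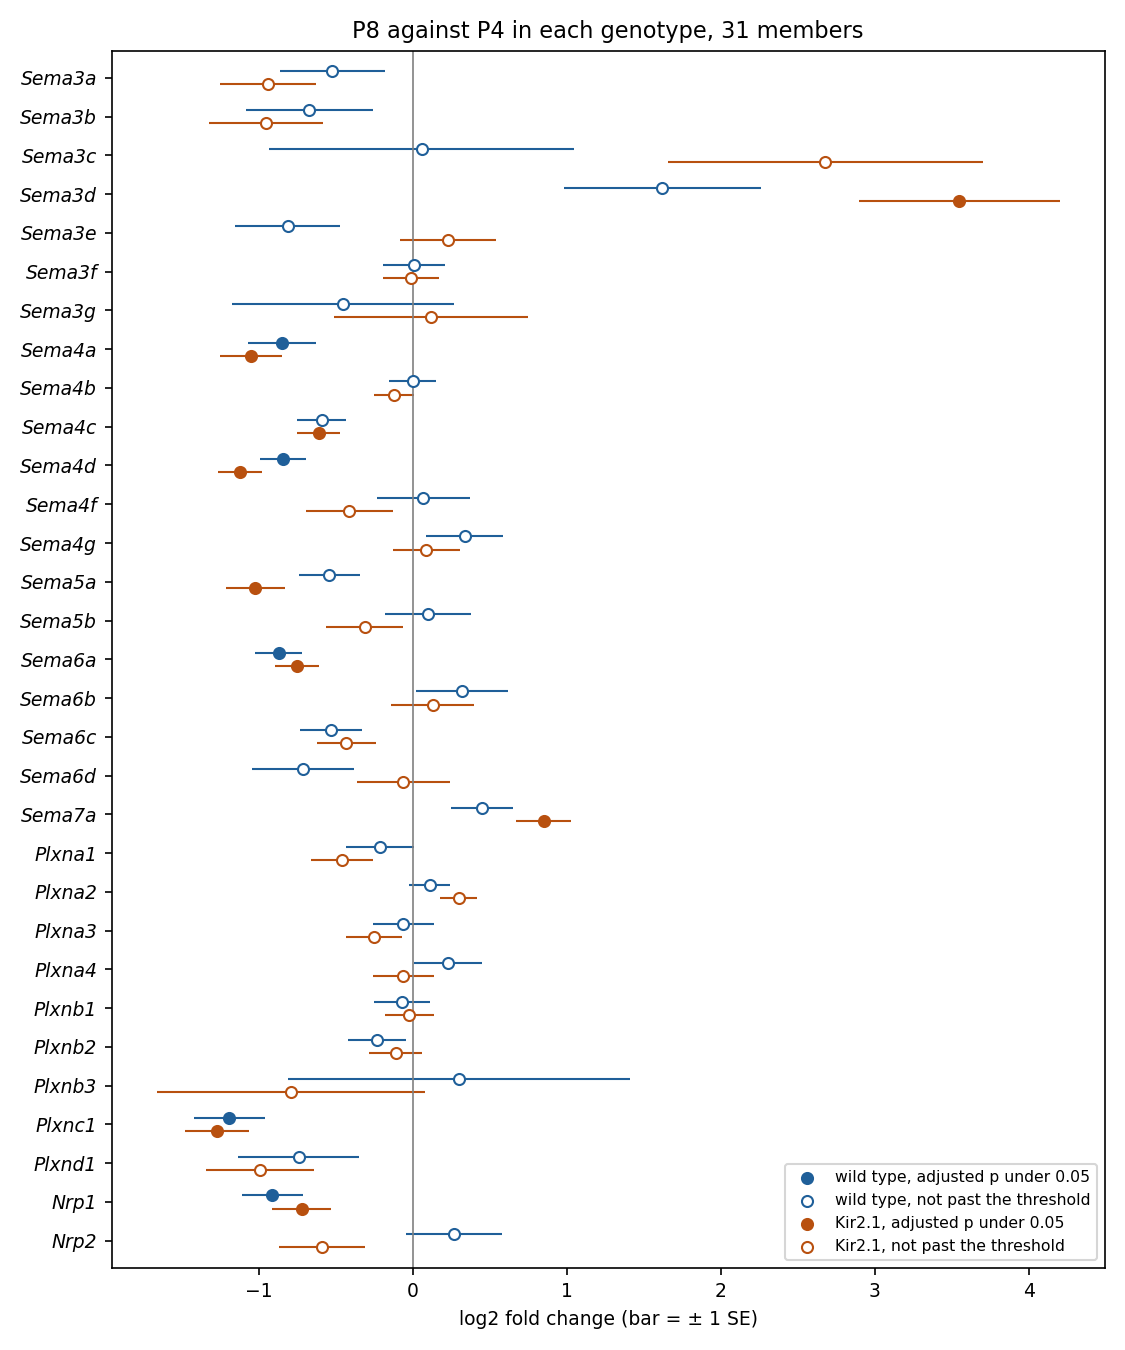
Log2 fold change of P8 over P4 (horizontal axis, bars ± 1 SE) for each member in wild type (blue) and Kir2.1 (orange), with filled points where the adjusted p was under 0.05. In wild type the 5 filled points lie to the left of 0, and in Kir2.1 7 lie to the left and those of Sema3d and Sema7a to the right.

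The cell lists moved with age too: all 10 ganglion cell markers and all 6 dividing cell markers fell, and all 7 rod and all 6 bipolar cell markers rose. The ganglion cell sum was 419 to 1890 CPM at P4 and 220 to 452 CPM at P8, and the dividing cell sum was 874 to 2520 CPM at P4 and 76.9 to 130 CPM at P8. Their part in the members' changes with age was not tested. Without wild-type P4 replicate 2 and wild-type P8 replicate 1 together, 13 members were called in the averaged comparison (22.4% of all genes). Sema3a lost its call when either wild-type P4 library, any 1 Kir2.1 P4 library, or Kir2.1 P8 replicate 2 or 3 was left out (adjusted p = 0.0506 to 0.125). Plxnd1 lost it without either wild-type P4 library, Kir2.1 P4 replicate 1 or 2, Kir2.1 P8 replicate 2 or 3, or the second of the wild-type P8 libraries (adjusted p = 0.0605 to 0.0978), and Sema6c without replicate 1 of wild type at P4, of Kir2.1 at P4 or of Kir2.1 at P8 (adjusted p = 0.0518 to 0.181).

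A list of 48 further genes of the pathway, the signalling partners that act with or below these receptors, held 24 called with age (50%), of which 3 rose and 21 fell, where 22.8% of all genes were called, 10.7% higher and 12.1% lower. All 4 immunoglobulin co-receptors (L1cam, Nrcam, Chl1 and Cntn2) fell, as did 4 of the 5 collapsin response mediators, which carry the Sema3a signal to microtubules. All 10 ganglion cell markers fell too, with the sums given above, and their part in the co-receptor and mediator results was not tested. Of the 24 called genes, the lowest fold changes were those of Mical1, a redox enzyme that takes actin filaments apart below plexins (-1.48 ± 0.14, adjusted p = 2.05e-05), and of Chl1 (-1.45 ± 0.26, adjusted p = 0.00168). Pgf, a growth factor of the vascular family, fell by 1.30 ± 0.40 (adjusted p = 0.0337) but rests on few counts, at 1.4 to 2.76 CPM at P4 and 0.458 to 1.67 CPM at P8. Tyrobp, a signalling adaptor of microglia, fell by 1.23 ± 0.40 (adjusted p = 0.0456). Of the 6 microglial markers 5 fell with age, with sums of 157 to 328 CPM at P4 and 71.3 to 248 CPM at P8, and their part in the Tyrobp result was not tested. Vegfc, a lymphatic and vascular growth factor, rose by 1.49 ± 0.38 (adjusted p = 0.0148), and Flt1, a receptor of vascular growth factors, by 1.0 ± 0.32 (adjusted p = 0.0429). All 6 endothelial markers had a positive fold change with age, with 1 called, as did all 4 pericyte markers, with 2 called and sums of 11.5 to 18.1 CPM at P4 and 24.5 to 57.1 CPM at P8. Of these only the pericyte marker Kcnj8 was at 0 in a library, Kir2.1 P4 replicate 1, and their part in the Vegfc and Flt1 results was not tested. Farp2, an exchange factor that couples Nrp1 and class A plexins to Rac, rose by 0.96 ± 0.13 (adjusted p = 0.000239). Of the called genes of the list, Dpysl2, a collapsin response mediator, came next after these 3 at -0.43 ± 0.14 (adjusted p = 0.0398).

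At P4, 0 of the 31 members differed between Kir2.1 and wild type by edgeR, and 0% of all genes were called. At an unadjusted p under 0.05 there were 2 members, both lower in Kir2.1, where 7.22% of all genes passed that limit. The count at that limit was 7 with only the P4 libraries fitted, beside 8.71% of all genes, and 10 with no filter on low counts, beside 5.83%. With no filter, edgeR also called 1 member by adjusted p, Sema3d, lower in Kir2.1 (339 of 36534 genes). DESeq2 called 0 members and 21 of 14909 genes, with 4 members and 3.68% of all genes with a p-value at an unadjusted p under 0.05. Limma voom called 0 members and 0 genes, with 4 members and 7.9% of all genes at that limit. DESeq2 was run with no filter beforehand, so its share covers more sparse genes. The median standard error of a member's log2 fold change was 0.22. Sema3d, with the P4 values given above, was lower in every Kir2.1 library than in either wild-type library, by a log2 fold change of -2.51 ± 0.70 (unadjusted p = 0.00373, adjusted p = 0.677). With wild-type P4 replicate 2 left out the value was -1.36, and with replicate 1 left out it was -3.14. In the authors' deposited table for P4, Sema3d was the 1 member called among 28 with an adjusted p, at -2.73 ± 0.76 (adjusted p = 0.0211), where 2.27% of the genes in that table were called and 1.09% called lower.

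Sema3e was also lower in all 3 Kir2.1 libraries at P4 than in both wild-type libraries, with a log2 fold change of -0.85 ± 0.34 (unadjusted p = 0.0282, adjusted p = 0.677). Endothelial markers summed to 52.5 and 54.8 CPM in wild type and to 45.9, 13.4 and 5.42 CPM in Kir2.1 at P4, with 0 of 6 called. Their part in the Sema3d and Sema3e values was not tested. Sema5a ranked next by p at 0.44 ± 0.21 (unadjusted p = 0.0547, adjusted p = 0.691), and its groups overlapped. The Sema5a value was 0.22 without wild-type P4 replicate 2, 0.26 without Kir2.1 P4 replicate 2 and 0.70 when the first of the wild-type libraries was left out. Plxnd1 itself stood at 0.38 ± 0.39 (adjusted p = 0.842). In the pathway list 0 of 48 were called, with 7 at an unadjusted p under 0.05, beside 7.22% of all genes. Chl1 was at 112 and 46.9 CPM in wild type and 46.6, 17.9 and 36.2 CPM in Kir2.1 (log2 fold change -1.24 ± 0.37, unadjusted p = 0.00553, adjusted p = 0.677), and Dpysl5 stood at -0.60 ± 0.20 (unadjusted p = 0.0111, adjusted p = 0.677). The 10 ganglion cell markers summed to 1890 and 1210 CPM in wild type and to 971, 419 and 1020 CPM in Kir2.1 at P4, each of them with a negative fold change and 0 called, and their part in the Chl1 and Dpysl5 values was not tested.

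**Figure D4:**
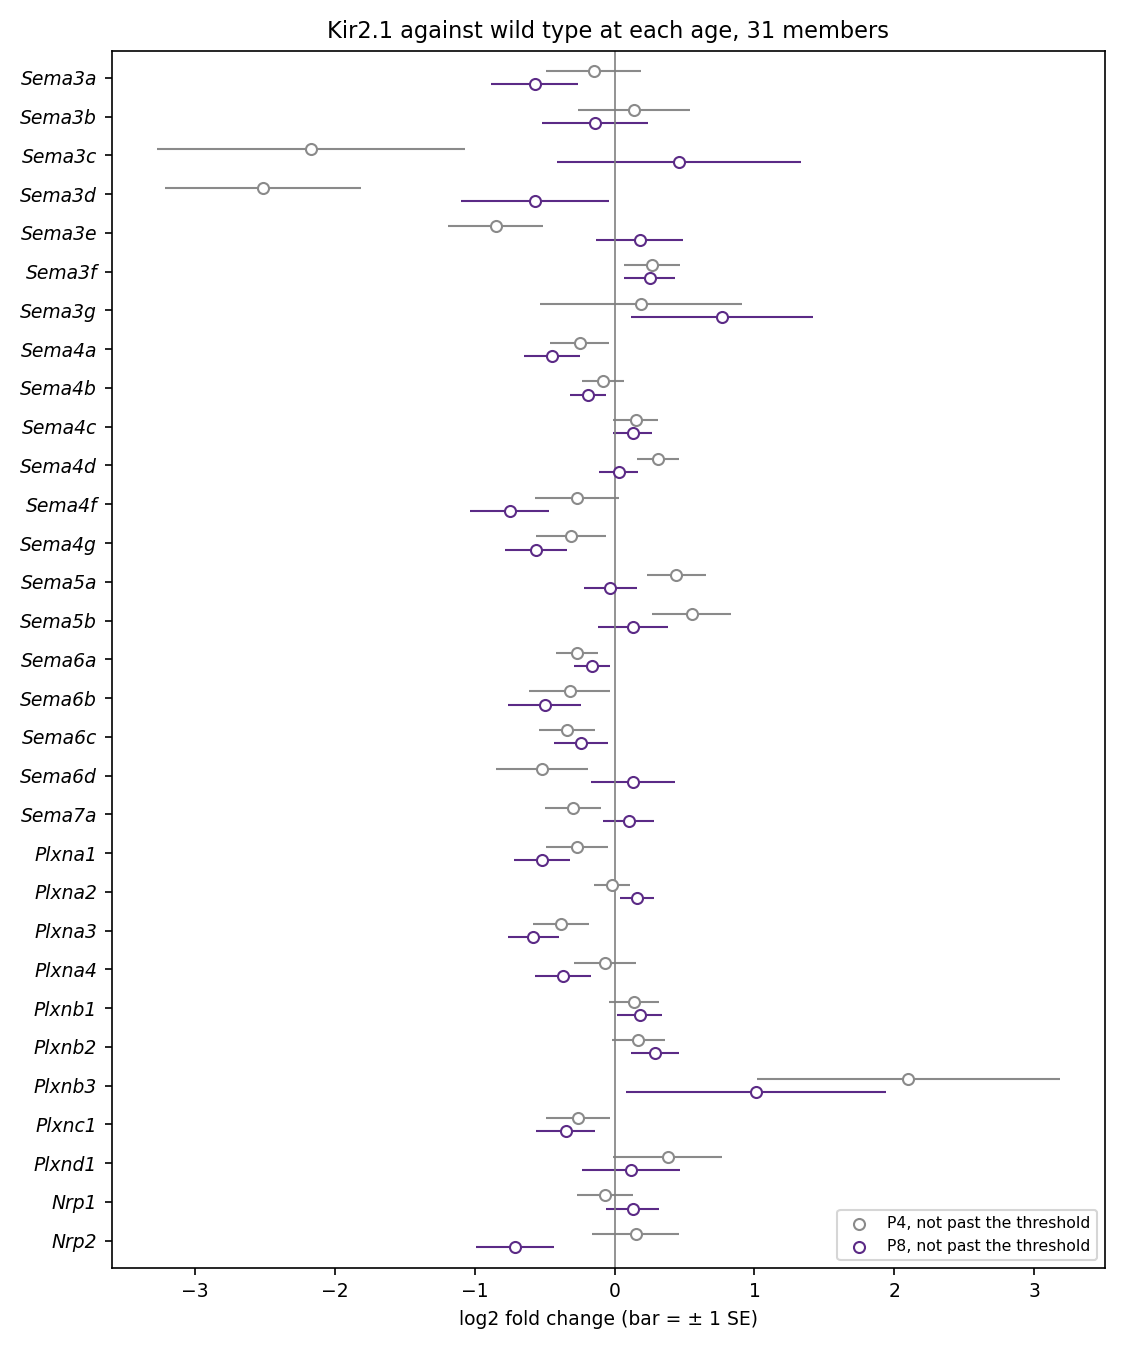
Log2 ratio of Kir2.1 to wild type (horizontal axis, bars ± 1 SE) for each member at P4 (grey) and P8 (purple), all drawn open because none had an adjusted p under 0.05. Sema3d lies furthest to the left at P4, and the widest bars are those of the sparsely counted Sema3c and Plxnb3.

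At P8, edgeR on all libraries called 0 of 31 members between Kir2.1 and wild type, and 0% of all genes. At an unadjusted p under 0.05 there were 6 members, all lower in Kir2.1: Plxna3, Sema4f, Plxna1, Nrp2, Sema4g and Sema4a, where 6.82% of all genes passed that limit. That count was 2 without Kir2.1 P8 replicate 1 (5.6% of all genes) or replicate 2 (3.55%), 13 without wild-type P8 replicate 3 (19.8%), 3 with only the P8 libraries fitted (4.85%) and 10 with no filter (7.36%). With no filter, edgeR also called 4 members lower by adjusted p: Sema4g, Nrp2, Plxna1 and Plxna3 (447 of 36534 genes). The standard error of Nrp2 was 0.15 there, against 0.28 in the main fit. DESeq2 called 0 members, with 6 members and 3.92% of all genes at an unadjusted p under 0.05, and limma voom 0, with 14 members and 17.9% of all genes. Plxna3, a receptor through which class 5 semaphorins act with plexin A1, was at 100, 86.4 and 56.5 CPM in wild type and 53.6, 54.9 and 54.4 CPM in Kir2.1. Wild-type replicate 3 lay just above the Kir2.1 libraries, and the log2 fold change was -0.58 ± 0.18 (unadjusted p = 0.00815, adjusted p = 0.699). Sema4f was at 12.1, 17.4 and 14.6 CPM in wild type and 12, 6.57 and 7.41 CPM in Kir2.1, with no overlap, at -0.75 ± 0.28 (unadjusted p = 0.0181, adjusted p = 0.699). Plxna1, receptor of Sema6d and of class 5 ligands, was at 408, 347 and 202 CPM in wild type and 223, 194 and 250 CPM in Kir2.1. Wild-type replicate 3 lay among the Kir2.1 libraries, and the log2 fold change was -0.52 ± 0.20 (unadjusted p = 0.0244, adjusted p = 0.699). The antisense gene Gm26811 covers 10.7% of the exonic bases of Plxna1, and how reads over those bases were assigned is not known without the strand setting. At P4 Plxna1 was at 353 and 388 CPM in wild type and 312, 285 and 323 CPM in Kir2.1, and Plxna3 at 91.1 and 77.9 CPM in wild type and 73.9, 56.6 and 63.8 CPM in Kir2.1. For both genes the Kir2.1 libraries at P4 lay below the wild-type libraries, at -0.27 ± 0.22 for Plxna1 (adjusted p = 0.798) and -0.38 ± 0.20 for Plxna3 (adjusted p = 0.706).

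Wild-type P8 replicate 3 lay with the Kir2.1 libraries in several members. Nrp2, the co-receptor of Sema3f, was at 237, 155 and 90.9 CPM in wild type and 99.2, 76.1 and 120 CPM in Kir2.1 at P8, and the log2 fold change was -0.71 ± 0.28 (unadjusted p = 0.0264, adjusted p = 0.699). At P4 the Nrp2 libraries were at 126 and 142 CPM in wild type and 165, 120 and 160 CPM in Kir2.1 and overlapped. Without wild-type P8 replicate 3, edgeR called 4 members lower in Kir2.1 at P8, where 0.677% of all genes were called lower and 1.21% in either direction. These were Nrp2 at -0.99 ± 0.21 (adjusted p = 0.0489), Sema3a at -0.92 ± 0.18 (adjusted p = 0.0387), Plxna1 at -0.76 ± 0.13 (adjusted p = 0.0322) and Plxna3 at -0.78 ± 0.14 (adjusted p = 0.0351). DESeq2 on the P8 libraries without that replicate called 6 members, where 9.4% of all genes were called. That replicate was the lowest wild-type P8 library in Nrp2, Sema3a, Plxna1 and Plxna3. Leaving it out therefore widens their difference, and these calls are no separate support. Without wild-type P8 replicate 1 in its place, edgeR called 0 members and 0% of all genes. At an unadjusted p under 0.05 there were then 4 members, beside 3% of all genes. In that fit Nrp2, Sema3a, Plxna1 and Plxna3 stood at -0.32, -0.36, -0.31 and -0.40.

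Marker sums of the P8 libraries moved with these members. The 6 amacrine cell markers summed to 2980, 2030 and 1070 CPM in wild type and 1460, 883 and 1550 CPM in Kir2.1. The 7 rod markers summed to 620, 2430 and 5110 CPM in wild type and 4690, 5100 and 4970 CPM in Kir2.1. Wild-type replicates 1 and 2 were the highest in amacrine markers and the lowest in rod markers, and replicate 3 lay with or beyond the Kir2.1 libraries. The 10 ganglion cell markers summed to 388, 452 and 220 CPM in wild type and 330, 232 and 282 CPM in Kir2.1, and the 6 bipolar cell markers to 179, 440 and 822 CPM in wild type and 507, 623 and 446 CPM in Kir2.1, with wild-type replicate 3 the lowest library in the former and the highest in the latter. All 6 amacrine and all 10 ganglion cell markers had a negative log2 fold change in Kir2.1, and all 7 rod and all 6 bipolar cell markers a positive one, with 0 of these lists called and none of their markers at 0 in any P8 library. Their part in the values of Plxna1, Plxna3, Nrp2, Sema4g and Sema3a was not tested.

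**Figure D5:**
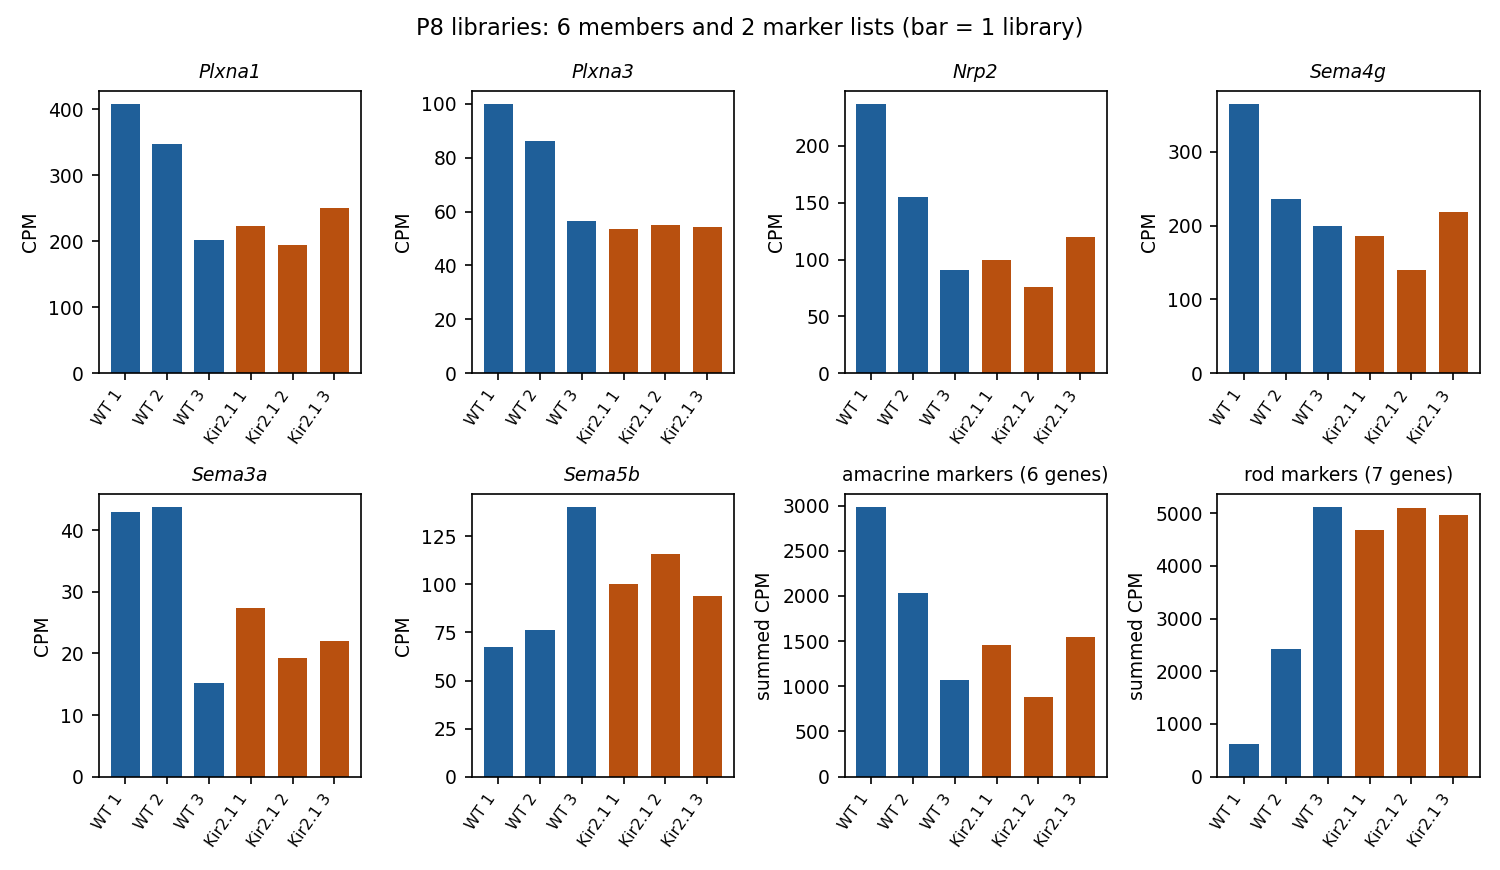
Bars give CPM of 6 members and the summed CPM of 2 marker lists in each of the 6 P8 libraries (blue, wild type 1 to 3; orange, Kir2.1 1 to 3), with vertical axes from 0. In Plxna1, Plxna3, Nrp2 and amacrine markers, wild type 1 and 2 are the tallest bars and wild type 3 is near the Kir2.1 bars, and rod markers show the reverse order.

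In the authors' deposited table for P8, 6 of the 27 members with an adjusted p were called (22.2%), where 7.27% of the genes in that table were called, 3.25% higher and 4.02% lower. In the authors' deposited table these were lower for Plxna1 (-0.79 ± 0.17, adjusted p = 0.000387), Nrp2 (-1.01 ± 0.22, adjusted p = 0.000596), Plxna3 (-0.80 ± 0.18, adjusted p = 0.000709), Sema3a (-0.92 ± 0.23, adjusted p = 0.00412) and Sema4g (-0.73 ± 0.21, adjusted p = 0.0168). The authors' deposited table had Sema5b higher (0.55 ± 0.18, adjusted p = 0.0339). The libraries behind the authors' deposited table and the direction of its fold changes are not given in the sources used here. The sign is read as Kir2.1 relative to wild type because it matched DESeq2 on these counts in 87.6% of genes at P8, and in 73.1% at P4. At P8 the correlation of its fold changes with those of DESeq2 was 0.827 on all P8 libraries and 0.917 without wild-type replicate 3. The 6 members that DESeq2 called without that replicate were the same 6. In edgeR on all libraries Sema5b stood at 0.13 ± 0.25 (adjusted p = 0.916), and its sign turned without wild-type P8 replicate 1 (-0.07) or replicate 2 (-0.01). Sema4g, a ligand of plexin B2, was at 365, 236 and 199 CPM in wild type and 186, 140 and 219 CPM in Kir2.1 at P8, which overlapped, with a log2 fold change of -0.56 ± 0.22 (unadjusted p = 0.0284, adjusted p = 0.699) that was -0.26 without wild-type replicate 1. Of the 48 pathway genes edgeR called 0 at P8, with 3 at an unadjusted p under 0.05, beside 6.82% of all genes. The smallest p belonged to Rnd3, a small GTPase, at 144, 148 and 109 CPM in wild type and 105, 88.6 and 83.1 CPM in Kir2.1 (-0.53 ± 0.14, unadjusted p = 0.00231, adjusted p = 0.699). Pak1, a kinase that Rac activates, stood at -0.46 ± 0.18 (unadjusted p = 0.0257, adjusted p = 0.699). The authors' deposited table called 7 of 43 pathway genes at P8 (16.3%), all lower: L1cam, Nrcam, Crmp1, Dpysl2, Arhgef12, Rnd3 (adjusted p = 0.0147) and Pak1 (adjusted p = 0.0101).

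Whether the Kir2.1 effect differed between the ages was tested as an interaction, and edgeR called 0 of 31 members and 0% of all genes. At an unadjusted p under 0.05 there were 2 members, where 3.09% of all genes passed, and DESeq2 called 0 members with 3 members and 1.67% of all genes at that limit, and limma voom 0 with 1 member and 5.27% of all genes. That count of 2 ran from 0 (without wild-type P4 replicate 2, Kir2.1 P4 replicate 1 or Kir2.1 P8 replicate 1) to 4 (without wild-type P8 replicate 3, beside 7.74% of all genes) with 1 library left out, and was 5 with no filter (3.97%). The difference of the log2 fold changes, P8 minus P4, was 1.94 ± 0.88 for Sema3d (unadjusted p = 0.0483, adjusted p = 1) and 1.03 ± 0.46 for Sema3e (unadjusted p = 0.0458, adjusted p = 1). For Sema3e the Kir2.1 effect was -0.85 ± 0.34 at P4 and 0.18 ± 0.31 at P8. For Nrp2 the effect was 0.15 ± 0.31 at P4 and -0.71 ± 0.28 at P8, with a difference of -0.86 ± 0.42 (unadjusted p = 0.0644, adjusted p = 1). A larger Sema3d change with age in Kir2.1 than in wild type was therefore not shown at the adjusted threshold in the main fit. With no filter, edgeR called Sema3d and Nrp2 in the interaction (136 of 36534 genes).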

How the data were processed

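Total RNA of dissociated retinas was sequenced by the submitters, per the labels' protocols. The authors deposited raw counts per Ensembl gene for each library, and for each age a table with a mean normalized signal, a log2 fold change and its error, a statistic (a score), and p-values, per the file headers. Per the submitters' processing notes, cutadapt 1.18, STAR 2.5.0c, SAMtools 1.9, bedtools 2.26.0, HTSeq 0.6.1, DESeq2 and build mm10 were named; the annotation and strand setting are not given in the sources used here. Records that name no gene (74.57% to 79.83% per library) were left out. Symbols were found for 46488 of 47069 identifiers, and 10535 genes had no count. Groups came from the titles.

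In R 4.3.3, edgeR 4.0.16 was used with TMM scaling (factors 0.964 to 1.05), filterByExpr by group and a quasi-likelihood fit of 4 group means to all 11 libraries (7 residual degrees of freedom, common biological coefficient of variation 0.247). The Benjamini-Hochberg adjustment ran over 18188 genes, with a threshold of 0.05, for 6 comparisons. DESeq2 1.42.0, limma 3.58.1 (voom), other filters and scalings, a replicate block and each library left out were alternatives. The scripts were tested on simulated data. There, 2-fold changes were recovered in 50% of changed genes for the P4 genotype comparison, 61% for P8 and 10% for the interaction. Exon lengths came from GENCODE M21 (GRCm38), which held all 31 members, 7 of which share exonic bases with another gene. Values were given per library for members called in any comparison, for the 3 with the smallest p in each genotype comparison, and for 13 with a described part in retinal wiring or vessels. From the pathway list, the called genes with the 4 highest and 4 lowest changes with age and the 2 with the smallest p in each genotype comparison were named. Members and lists (48 pathway genes, 84 markers in 15 lists; 1 further marker is not reported here) were chosen with earlier results of these data known. Deviations of same-numbered libraries correlated weakly (-0.0757 to 0.139), so the numbers were not taken as pairs.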

Additional observations from a re-analysis of the deposited data

How the results depend on the processing

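Of 372 alternative values of 22 fold changes of named members, 337 kept their direction and side of the threshold, 15 passed it newly, 18 no longer passed and 2 turned sign. With age, averaged over genotypes, the count of members called ranged from 9 (without wild-type P4 replicate 1, 2133 of 19801 genes) to 14 (limma voom, 4713 of 18188 genes, and without wild-type P8 replicate 1, 4417 of 18072 genes) around 12, and 9 of the 12 passed under all 19 alternatives (Sema3a, Sema6c and Plxnd1 did not). In wild type the count of 5 became 10 with no filter on low counts (2058 of 36534 genes called, against 798 of 18188). It was lower without wild-type P4 replicate 1, as given above. With 1 wild-type P8 library left out it ranged from 3 (without replicate 2, 536 of 18068 genes) to 6 (without replicate 1, 1299 of 18072 genes). In Kir2.1 it ranged from 7 (without Kir2.1 P8 replicate 2, 2012 of 17913 genes) to 13 (limma voom, 4286 of 18188 genes, and no filter, 3661 of 36534 genes) around 9. At P4 the genotype count of 0 became 1 with no filter (Sema3d, 339 of 36534 genes). At P8 it became 4 with no filter (447 of 36534 genes) and 6 with DESeq2 on the P8 libraries without wild-type replicate 3, the same 6 members as in the authors' deposited table, and ranged from 0 to 4 with 1 library left out. The interaction count of 0 became 2 with no filter (Nrp2 and Sema3d, 136 of 36534 genes). The P8 fold change of Sema5b ranged from -0.07 to 0.52, around 0.13, and was negative without wild-type replicate 1 (-0.07) or 2 (-0.01); the cause was not tested. With the replicate number as a block the counts were 11 with age on average, 4 in wild type, 10 in Kir2.1 (3721, 558 and 2928 of 18188 genes), and 0 at P4, 0 at P8 and 0 for the interaction. Under the block Sema3a lost its call on average and Sema4a in wild type, and Plxnd1 gained one in Kir2.1. Of 15 pairs of same-numbered libraries, 3 had a correlation of deviations over 0.1 (range -0.0757 to 0.139). These values cannot show whether same-numbered libraries share a litter or batch, and the labels do not say. Where a wild-type P4 library was left out, the lone other one was assumed to vary like the other groups. At 0.0768 to 0.104 CPM per count, Sema3c and Plxnb3 are too sparse for a fold change to be read.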
